A study of Sus scrofa with 12 samples.

Results

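The chromatin accessibility of 9 genes was examined in the longissimus dorsi muscle of Duroc pigs and Luchuan pigs. The genes were ABCA5, BCAP31, CCNYL1, LGMN, PPP1R14C, RDH16, SH3BP5, SHISA2 and TDRD7, which are among the genes that the study shows with differences between the breeds in both accessibility and expression. Because they were chosen from differences in these libraries, their ratios are given as descriptions, without a test, and their directions are not independent evidence. Peak intervals were taken when their midpoint lay in the gene body or within 10 kb of it, which gave 246 of the 217213 deposited intervals. After overlapping intervals called in both breeds had been merged, these were 149 of 140081 regions. In ATAC-seq a transposase inserts adapters into open chromatin, and read density therefore follows accessibility. The assay was carried out on 3 Duroc and 3 Luchuan pigs, all males aged 180 days and fed alike, which were fasted overnight before slaughter. No treatment was given to either group, and the labels differ by breed. The deposited table holds 1 read count per interval and breed, so the spread between animals is unknown and no test between the breeds was possible. The 6 RNA-seq libraries of the series were not analysed here.

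Promoters and enhancers of active genes are usually accessible, and a gene can have accessible regions at its ends, inside its introns and outside its body. The 9 genes belong to different pathways. ABCA5 is a lipid transporter of the late endosome and lysosome, LGMN is legumain, a lysosomal protease that cuts after asparagine, and BCAP31 is a chaperone and cargo receptor of the endoplasmic reticulum. PPP1R14C is an inhibitor of protein phosphatase 1, SH3BP5 activates the small GTPase RAB11 and binds the kinases BTK and JNK, SHISA2 holds back the maturation of Frizzled and FGF receptors, and CCNYL1 is a paralog of cyclin Y, which activates the kinases CDK14 and CDK16. RDH16 is a retinol dehydrogenase known mainly from liver, and TDRD7 is an RNA-granule protein with Tudor domains known from lens and germ cells.

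The regions of the series held 20760292 reads in Duroc and 13746432 in Luchuan, with medians of 61 and 38 per region. Luchuan counts were multiplied by 1.48, which set the median log2 ratio to 0 over the 68776 regions called in both breeds. All log2 ratios are Luchuan over Duroc on that scale, with 1 read added to each count, and a negative ratio is higher in Duroc. Scaling by the clean reads of the libraries, those left after quality filtering, shifts every ratio by -0.20, and directions are stated relative to the median of the regions. Brackets hold 95% Clopper-Pearson intervals, which cover counting error and not the spread between animals, and without molecular identifiers reads can repeat the same molecule. The tissue was checked at gene ends. All 8 skeletal muscle genes examined, among them ACTA1, CKM and DES, had a region within 2 kb of an end, and the strongest such region had a median of 1079 Duroc reads per kb. Such a region was found for 4 of 8 macrophage, 2 of 5 endothelial, 1 of 5 adipocyte and 3 of 5 hepatocyte genes. With genes lacking one counted as 0, their medians were 109 for macrophage, 0 for endothelial, 0 for adipocyte and 263 for hepatocyte genes. In whole muscle, a smaller number of cells of a type and weaker accessibility in each cell cannot be told apart.

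At least 2-fold higher in Duroc were 21 of the 149 regions, beside 5.34% of all regions in this direction, and at least 2-fold higher in Luchuan were 7, beside 7.40% of all. Scaled by clean reads, these counts were 24 and 2. The share of all regions past 2-fold in Luchuan depended on reads. It was 20.8% below 50 reads, 4.69% from 50 to below 100, 2.47% from 100 to below 200 and 1.30% from 200 to below 500. In the same order the Duroc shares were 5.65%, 6.53%, 7.08% and 5.14%. Of the 149 regions, 14 had fewer than 50 reads. Since differences chose the genes, nothing was read from the counts past 2-fold about the genes as a group. The 21 regions belonged to 7 genes, PPP1R14C with 10, SHISA2 with 3, ABCA5, RDH16 and TDRD7 with 2 each, and CCNYL1 and LGMN with 1 each. The 7 regions higher in Luchuan were all in SH3BP5. Of the 21 regions, 17 were called as peaks in Duroc alone, and of the 7 regions, 4 were called in Luchuan alone. Such regions entered the set only through the breed in which they are higher. Their peak call is therefore not separate support for their ratio. BCAP31 had no region past 2-fold. Nearest to the limit were ratios of -1.02 in ABCA5 and PPP1R14C and 1.04 in SH3BP5 inside it, and -0.999 in BCAP31 and 0.94 in SH3BP5 outside it. Among the 16986 protein-coding genes with any region in the same window, 20.6% had a region at least 2-fold higher in Duroc and 22.3% had one higher in Luchuan. Each of the 9 genes had 7 or more regions, and among the 9087 genes with 5 or more these shares were 31.4% and 28.5%. The median log2 ratio of the 149 regions was -0.23, against -0.0090 for all regions. Below 0 were 100 of them, beside 50.8% of all regions. Counting intervals lay wholly below 0 for 47 regions, beside 15.7% of all, and wholly above 0 for 19, beside 13.4% of all.

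**Figure D1:**
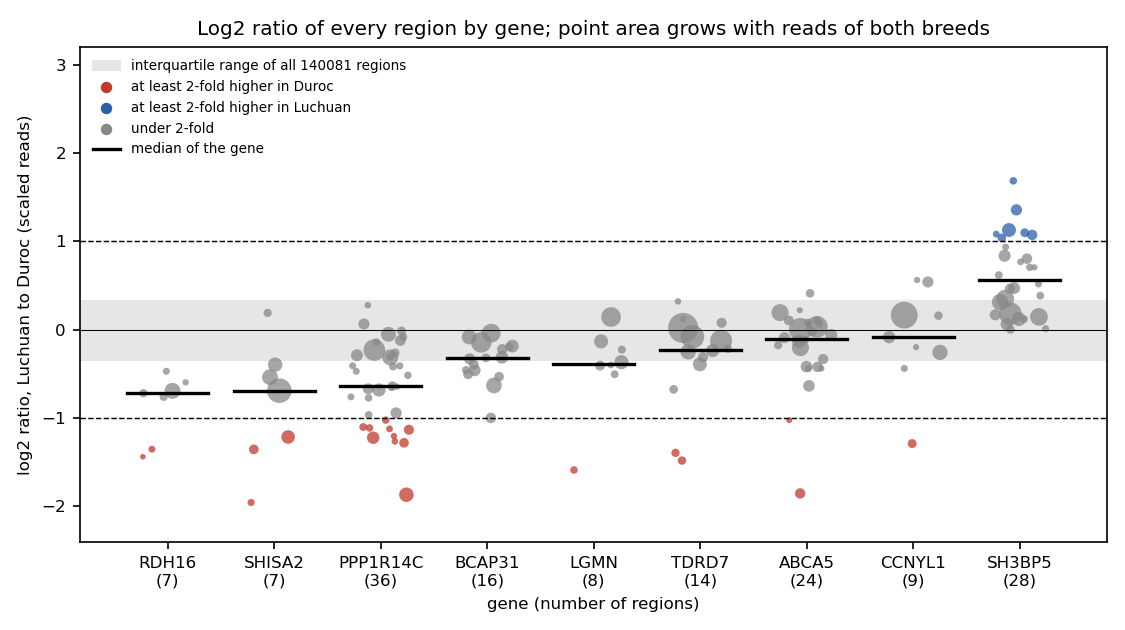
Log2 ratio of Luchuan to Duroc (vertical axis, scaled reads) for each of the 149 regions, grouped by gene along the horizontal axis with the number of regions in brackets. Points grow in area with the reads of both breeds, bars are medians, dashed lines mark 2-fold and the grey band spans the interquartile range of all 140081 regions, from -0.34 to 0.32. All 28 points of SH3BP5 lie above 0, all 16 of BCAP31 and all 7 of RDH16 lie below 0, and the largest points of most genes lie near 0.

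Reads summed over all regions of a gene gave an order from RDH16, the most Duroc-biased, to SH3BP5, the most Luchuan-biased. The summed log2 ratio was -0.75 (-0.95 to -0.55) for RDH16 and -0.71 (-0.81 to -0.60) for SHISA2, and these intervals overlapped. PPP1R14C followed with -0.56 (-0.63 to -0.49) and BCAP31 with -0.29 (-0.37 to -0.21). LGMN, TDRD7 and ABCA5 had -0.16 (-0.28 to -0.04), -0.15 (-0.21 to -0.08) and -0.12 (-0.19 to -0.05), which did not differ beyond counting error. CCNYL1 had 0.04 (-0.06 to 0.13), an interval that included 0, and -0.16 when scaled by clean reads. SH3BP5 had 0.46 (0.39 to 0.52). Among the 13836 protein-coding genes with 500 or more reads in the same window, the median was -0.019 and the interquartile range was -0.15 to 0.11. Lower ratios than that of RDH16 were found for 117 of these genes, than that of SHISA2 for 147 and than that of PPP1R14C for 288. Higher ratios than that of SH3BP5 were found for 228. ABCA5 and CCNYL1 lay within the interquartile range, TDRD7 lay at its lower edge and LGMN and BCAP31 below it, with 3426, 3219 and 1332 genes lower still.

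Regions that span an annotated gene end had small ratios. The annotation used here gives no strand, so the transcription start could be at either end. Such a region was found at 7 gene ends, with log2 ratios from -0.23 in PPP1R14C to 0.19 in ABCA5, and none of the 7 reached 2-fold. Scaled by clean reads, these 2 ratios were -0.43 and -0.0020. SHISA2 and RDH16 had no such region. Of the 14 regions within 1 kb of a gene end, 2 were past 2-fold, in PPP1R14C and RDH16. The region with the most reads was under 2-fold in all 9 genes. The 28 regions past 2-fold had a median of 123 reads in both breeds together, against 202 for the other 121. Inside the gene body lay 23 of these 28 regions and 117 of all 149. Among all regions of the series with 500 reads or more, 0.814% were past 2-fold in Duroc and 0.182% in Luchuan. Of the 27 regions of the 9 genes with so many reads, 1 was past 2-fold, in PPP1R14C.

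**Figure D2:**
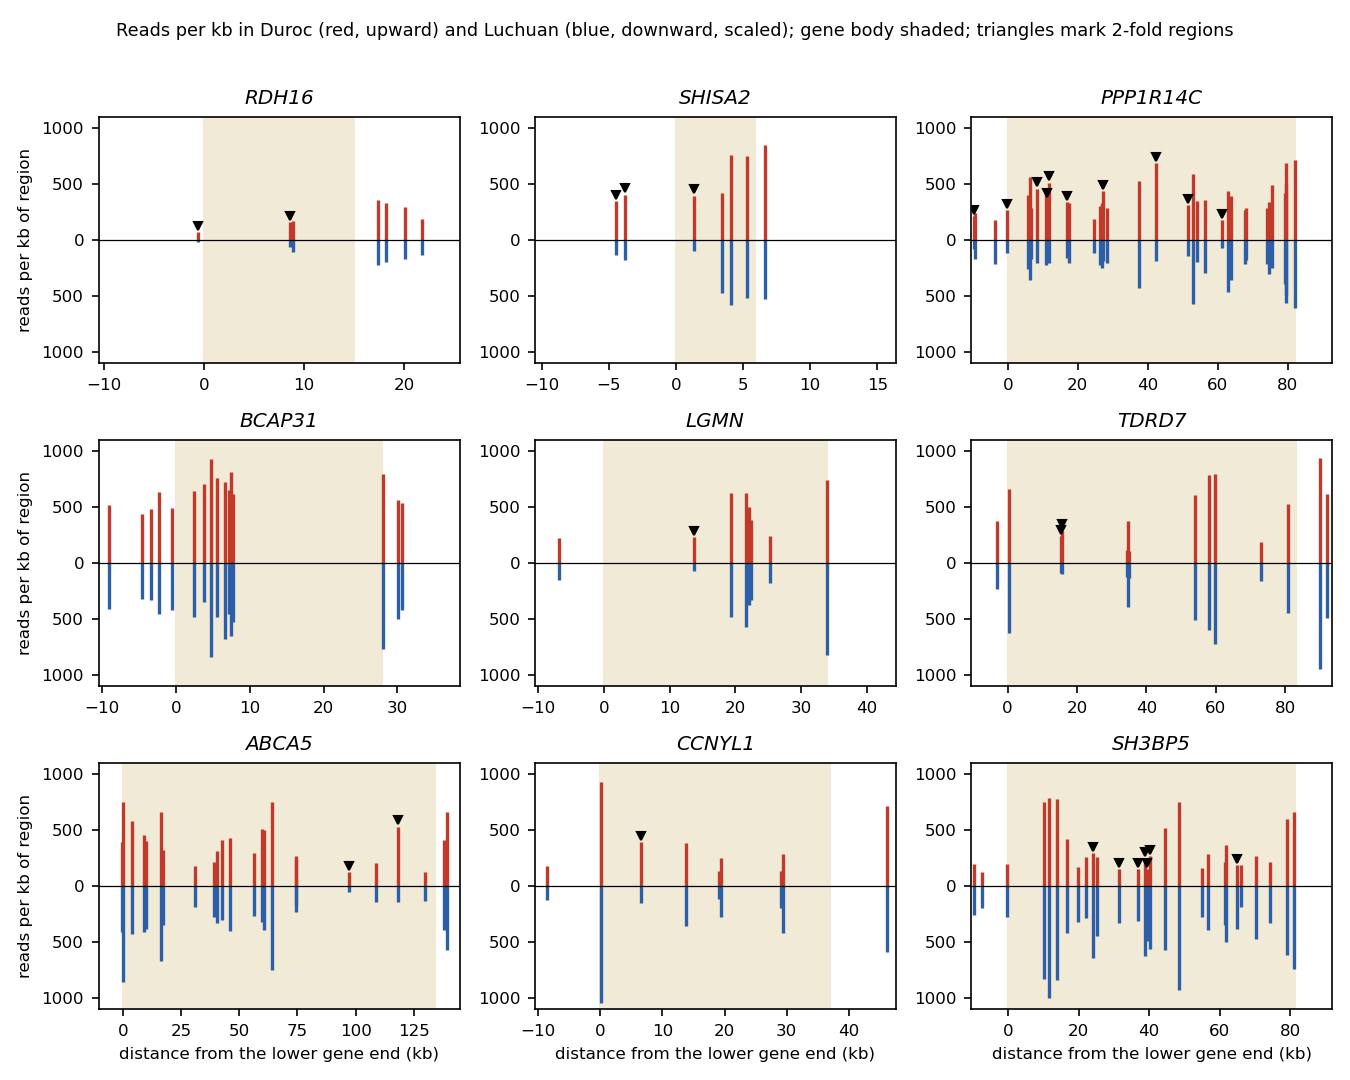
Reads per kb of region against the distance from the gene end with the lower coordinate, for each of the 9 genes. Duroc reads point upward in red, Luchuan reads, scaled by 1.48, point downward in blue, the gene body is shaded and triangles mark regions past 2-fold. The tall pairs at gene ends are of nearly equal height in BCAP31, TDRD7, ABCA5, CCNYL1 and LGMN. Of the 28 regions under triangles, 23 lie inside gene bodies, and BCAP31 has none. Their Duroc bars are mostly shorter and reach at most 690 reads per kb, in PPP1R14C.

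PPP1R14C had the most regions at least 2-fold higher in Duroc, 10, of which 4 stayed past 2-fold with 5 reads added to each count in place of 1. The gene occupies, on chromosome 1 of the Sscrofa11.1 assembly, positions 15867846 to 15949951 and held 36 regions, with 5064 reads in Duroc and 2334 in Luchuan. Of these regions 34 had ratios below 0, and the median was -0.64. The region at chr1:15909848-15910470, inside the gene 42.3 kb from its lower end, had 430 reads in Duroc and 79 in Luchuan and was called as a peak in Duroc alone. Its log2 ratio of -1.87 (-2.25 to -1.53) was a 3.65-fold difference and the largest of the gene. The next most covered of the 10 was the region at chr1:15894756-15895394, with 278 reads in Duroc and 80 in Luchuan and -1.22 (-1.61 to -0.87). The region at chr1:15876036-15876392 had 164 and 50 reads and -1.13 (-1.64 to -0.69). All 3 lay inside the gene.

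The other 7 of the 10 PPP1R14C regions had between 33 and 146 Duroc reads, between 9 and 40 Luchuan reads and ratios from -1.28 to -1.02. Among them, the region at chr1:15867597-15867759 lay just outside the lower gene end, with 44 reads in Duroc and 13 in Luchuan and a ratio of -1.12 (-2.21 to -0.28). The 10 regions were spread from 9.70 kb outside the lower gene end to 61.2 kb inside it, and between them lay regions of smaller difference. The region at chr1:15905068-15905841 had 410 reads in Duroc and 223 in Luchuan and a ratio of -0.31 (-0.56 to -0.08). The region at chr1:15920377-15920932 had 328 and 214 reads, and its interval of -0.31 to 0.20 included 0. At the higher gene end, the region with the most reads of the gene, at chr1:15949271-15950358, had 776 reads in Duroc and 448 in Luchuan and -0.23 (-0.40 to -0.06). With the 10 regions left out, the summed ratio of PPP1R14C was -0.34. Beyond the window, 10 to 100 kb from the gene, 25 regions gave -0.33 (-0.45 to -0.22), and 6 of them were past 2-fold in Duroc and 1 in Luchuan.

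SH3BP5 was the gene higher in Luchuan. It lies on chromosome 13 from 2504282 to 2585601 and held 28 regions, with 4129 Duroc reads and 3844 Luchuan reads, or 5672 after scaling. All 28 ratios were above 0, from 0.0028 to 1.68, with a median of 0.57, and 17 counting intervals lay above 0. When scaled by clean reads, 20 of the 28 were above 0. Of the 28 regions, 2 lay outside the lower gene end in the body of CAPN7, and both were under 2-fold. The 7 regions past 2-fold lay from 24.0 to 64.8 kb inside the lower gene end. The one with the most reads, at chr13:2527974-2528607, had 276 reads in Luchuan and 186 in Duroc and a log2 ratio of 1.13 (0.86 to 1.41).

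Within 3.57 kb in the middle of SH3BP5, 4 of the 7 regions followed each other without any other region between them, a stretch singled out after its values were seen. When scaled by clean reads, 2 of the 4 stayed past 2-fold. The 4 were the region at chr13:2541150-2541299 with 32 reads in Luchuan and 22 in Duroc, that at chr13:2543018-2543430 with 176 and 101, that at chr13:2543476-2543655 with 60 and 27, and that at chr13:2544375-2544721 with 133 and 93. Together they had 401 reads in Luchuan and 243 in Duroc and a ratio of 1.28 (1.05 to 1.52). The third of them had the largest ratio of the gene, 1.68 (1.04 to 2.43). Regions with more reads on both sides of this stretch varied. The region at chr13:2527974-2528607 had 1.13. That at chr13:2574236-2574803 had 183 reads in Luchuan and 151 in Duroc and 0.84 (0.52 to 1.16). Others differed less. The region at chr13:2515682-2516236 had 375 reads in Luchuan and 434 in Duroc and 0.35 (0.15 to 0.55), and that at chr13:2552467-2552963 had 313 and 372 reads and 0.31 (0.09 to 0.53). The region that spans the higher gene end, at chr13:2584829-2585978, had the most reads, 579 Luchuan and 754 Duroc, and a ratio of 0.18 (0.02 to 0.34), which became -0.014 when scaled by clean reads. Without the 7 regions the summed ratio was 0.31. The 16 regions 10 to 100 kb from the gene gave 0.04 (-0.05 to 0.14), an interval apart from that of the gene.

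**Figure D3:**
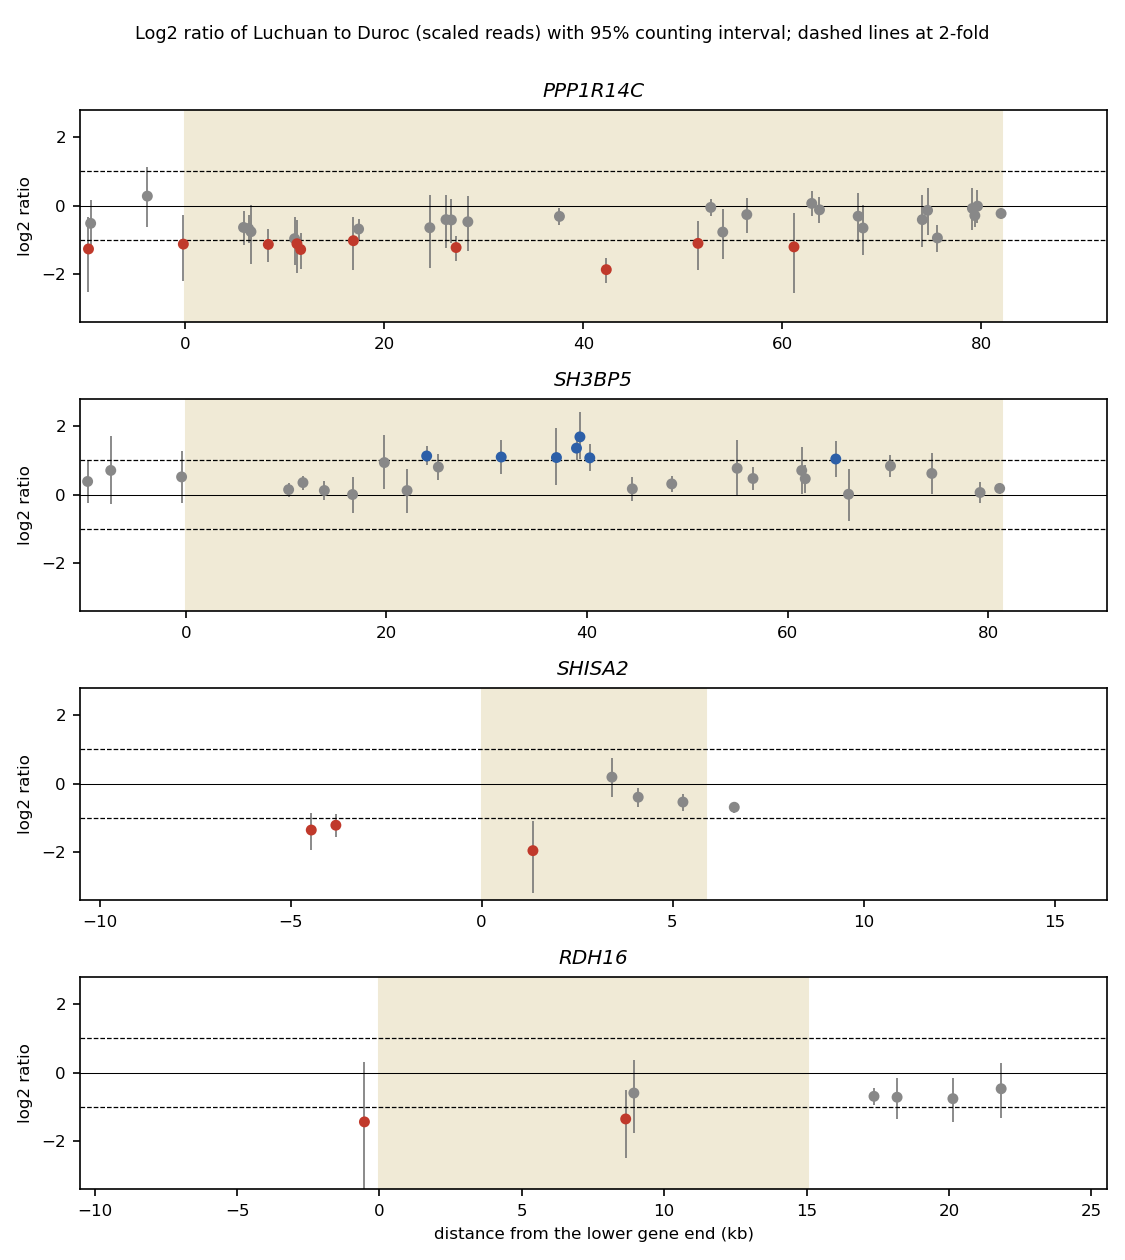
Log2 ratio of Luchuan to Duroc with its 95% counting interval against the distance from the lower gene end for PPP1R14C, SH3BP5, SHISA2 and RDH16, with the gene body shaded and dashed lines at 2-fold. Red points are at least 2-fold higher in Duroc and blue points in Luchuan. The 7 blue points of SH3BP5 lie between 24.0 and 64.8 kb, the 10 red points of PPP1R14C are spread from -9.70 to 61.2 kb, and the interval of 1 RDH16 region runs below the axis to -5.11.

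SHISA2 lies on chromosome 11 from 3806297 to 3812170 and held 7 regions, 6 of them with ratios below 0. Its strongest region was lower in Luchuan, as were those of RDH16, at -0.69, and PPP1R14C, at -0.23, with intervals below 0. That of SHISA2 lay just outside the higher gene end, at chr11:3812255-3813572, with 1123 reads in Duroc and 471 in Luchuan, and its ratio was -0.69 (-0.85 to -0.54). Its neighbor inside the gene, at chr11:3811291-3811848, had 419 and 195 reads and -0.54 (-0.79 to -0.29). Among the 14 regions within 1 kb of an end of the 9 genes, these 2 were the ones with over 100 reads whose ratio was below -0.5.

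The 3 SHISA2 regions past 2-fold lay nearer the lower gene end. The region at chr11:3801626-3802053 had 150 reads in Duroc and 39 in Luchuan and a ratio of -1.36 (-1.93 to -0.87). The region at chr11:3802068-3802898 began 14 bases beyond it, with 338 and 98 reads and -1.21 (-1.56 to -0.90), and both lay outside the lower gene end, with midpoints 4.46 and 3.81 kb from it. Inside the gene, the region at chr11:3807565-3807720 had 62 reads in Duroc and 10 in Luchuan and -1.96 (-3.20 to -1.10), which was a 3.88-fold difference and the largest ratio of the 149 regions in Duroc's direction. The exception was the region at chr11:3809633-3809787, which was called in Luchuan alone, with 65 reads in Duroc and 50 in Luchuan and an interval of -0.38 to 0.74. The summed ratio was below 0 beyond the gene as well. The 18 regions 10 to 100 kb away gave -0.46 (-0.57 to -0.36), and 8 of them were past 2-fold in Duroc and 3 in Luchuan. Of these 8, 7 lay between 27.0 and 39.0 kb below the gene, inside LOC100523747.

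RDH16 had few reads. The gene lies on chromosome 5 from 22251751 to 22266801, and its 7 regions held 739 reads in Duroc and 298 in Luchuan, the fewest of the 9 genes. All 7 ratios were below 0, from -1.44 to -0.47, and 4 of the 7 counting intervals lay below 0. The 2 regions past 2-fold were weak. The region at chr5:22260251-22260547, inside the gene, had 48 reads in Duroc and 12 in Luchuan and -1.35 (-2.49 to -0.50). The region at chr5:22251143-22251303 had 11 and 2 reads, and its interval of -5.11 to 0.30 included 0. It lies in the body of SDR9C7, a neighboring gene of the same enzyme family. No region spanned an end of RDH16. The region with the most reads, at chr5:22268503-22269735, lay 2.32 kb beyond the higher end and had 445 reads in Duroc and 186 in Luchuan and -0.69 (-0.95 to -0.45). Together with 3 further regions up to 6.78 kb from that end, it gave -0.70 (-0.91 to -0.49). Within 2 kb of the gene body the summed ratio of RDH16 was -1.14, from 3 regions and 113 reads.

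The flank of RDH16 held a region without Luchuan reads. It lay 16.1 kb beyond the gene, at chr5:22282588-22283233 in LOC100512656, and had 126 reads in Duroc and 0 in Luchuan. With 3 reads taken as the limit that a count of 0 allows, the 126 reads were 28.5-fold higher. That value leaves out the counting error of the 126 reads, and the counting interval of the log2 ratio lay below -4.51. It is not among the 149 regions. The 10 flank regions of RDH16 gave a ratio of -0.26 (-0.40 to -0.13), and without that region -0.11.

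BCAP31 lies on the X chromosome from 124456999 to 124484923 and had 16 regions with 3787 reads in Duroc and 2098 in Luchuan. All 16 ratios were below 0, from -0.999 to -0.04, and 6 counting intervals lay below 0. The largest difference, in the region at chrX:124460641-124460884 with 173 reads in Duroc and 58 in Luchuan, was -0.999 (-1.47 to -0.58) and so just under 2-fold. The region at chrX:124462238-124462796 had 422 and 184 reads and -0.63 (-0.89 to -0.38). Both were called in Duroc alone. They lay in a group of 8 regions between 2.45 and 7.71 kb inside the lower gene end, which together gave -0.33 (-0.43 to -0.23). The region with the most reads of the gene was in the same group, at chrX:124461368-124462094, with 677 reads in Duroc and 415 in Luchuan and -0.14 (-0.32 to 0.03). The region across the higher gene end, at chrX:124484641-124485326, had 545 and 359 reads, and its interval of -0.24 to 0.15 included 0.

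Regions elsewhere on the X chromosome were also shifted toward Duroc. The 3323 regions on X had a median of -0.23, against -0.0040 for the autosomes, and 13.4% of them were at least 2-fold higher in Duroc and 3.37% in Luchuan, beside 5.34% and 7.40% of all regions. The 20 regions 10 to 100 kb from BCAP31 gave -0.23 (-0.30 to -0.17), close to the -0.29 of the gene. Centring on the X regions called in both breeds adds the same 0.13 to every ratio on X. On that scale the summed ratio of BCAP31 was -0.16. The part of the chromosome in this result was not tested further. Of the 16 regions, 1 lay in the body of SLC6A8, the creatine transporter.

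In each of the other 4 genes 1 or 2 regions inside the gene were past 2-fold, while the region with the most reads had a ratio between 0.0020 and 0.16. Scaled by clean reads, these 4 ratios lay below 0, from -0.19 in ABCA5 to -0.031 in CCNYL1. LGMN lies on chromosome 7 from 114176217 to 114210096 and had 8 regions. The region at chr7:114189810-114190113, 13.7 kb inside the lower end, had 70 reads in Duroc and 15 in Luchuan and a ratio of -1.59 (-2.57 to -0.84), a 3.01-fold difference. The region across the higher end, at chr7:114209701-114210467, had the most reads, 568 Duroc and 425 Luchuan, and 0.14 (-0.04 to 0.33), or -0.051 when scaled by clean reads. The 4 regions from 114195273 to 114198655 gave -0.28 (-0.45 to -0.11) together. The 21 regions 10 to 100 kb from LGMN together gave 0.30 (0.21 to 0.39), on the other side of 0. Those below the gene lay in RIN3, and the one with the most reads had 0.65 (0.43 to 0.87). Above the gene, the region with the most reads had 0.11 (-0.05 to 0.28). Legumain is abundant in macrophages. The 7 macrophage genes with regions held 27 regions, with a median log2 ratio of 0.0019 and 1 past 2-fold in Duroc and 3 in Luchuan. C1QB, which encodes a complement chain of macrophages, had no region, and no region lay within 2 kb of an end of CD163, CSF1R or MRC1. The macrophage genes went both ways, from -0.59 for C1QA and C1QC, which share 2 regions, 1 of them past 2-fold in Duroc, to 0.27 for MRC1. Their part in the ratio of LGMN was not tested.

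TDRD7 lies on chromosome 1 from 239285628 to 239368558, and 2 of its 14 regions were past 2-fold. They lay 39 bases apart inside the gene, at chr1:239300731-239301133 with 96 reads in Duroc and 24 in Luchuan, and at chr1:239301173-239301525 with 102 and 24 reads. Their ratios were -1.39 (-2.15 to -0.78) and -1.48 (-2.23 to -0.87), and both were called in Duroc alone. The region across the lower gene end, at chr1:239285256-239286580, had 879 reads in Duroc and 563 in Luchuan and -0.08 (-0.24 to 0.07). The region with the most reads in the window, at chr1:239374777-239376323 with 1446 and 993 reads and 0.02 (-0.10 to 0.14), lies in TMOD1, which encodes a protein that caps actin filaments. Just outside the 10 kb limit, 10.9 kb below TDRD7 and inside CCDC180, the region at chr1:239274240-239275264 had 424 reads in Duroc and 107 in Luchuan and -1.42 (-1.74 to -1.12). It had more reads than the pair of 2-fold regions inside the gene and is not counted among the 149.

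ABCA5, the longest of the genes, lies on chromosome 12 from 11018692 to 11152916 and had 24 regions. The region at chr12:11136725-11137084 had 191 reads in Duroc and 35 in Luchuan, and its ratio of -1.85 (-2.45 to -1.36) was a 3.61-fold difference. It was called in both breeds and lay 118 kb inside the lower gene end. The other region past 2-fold, at chr12:11115765-11115925, had 20 and 6 reads, and its interval of -2.78 to 0.19 included 0. The region with the most reads, at chr12:11082357-11083473, had 836 reads in Duroc and 567 in Luchuan and a ratio of 0.0020 (-0.16 to 0.16). The region across the lower end, at chr12:11018487-11019034, had 412 and 319 reads and 0.19 (-0.02 to 0.41). It lies beside MAP2K6, a kinase of the p38 pathway, whose body holds the next region. Without the regions past 2-fold the summed ratio of ABCA5 was -0.07.

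CCNYL1 lies on chromosome 15 from 110873912 to 110910929 and had 9 regions, 5 with ratios below 0 and 4 above. The region at chr15:110880397-110880698, 6.64 kb inside the lower end, had 118 reads in Duroc and 32 in Luchuan and -1.29 (-1.93 to -0.75). The region across the lower gene end held 54.2% of the reads of the gene. It was the region at chr15:110873461-110874630 with 1089 reads in Duroc and 827 in Luchuan and had a ratio of 0.16 (0.03 to 0.30), or -0.031 when scaled by clean reads. Another region inside the gene, at chr15:110903135-110903611, had 137 and 135 reads and 0.54 (0.19 to 0.89). Among the 9 genes, CCNYL1 alone had counting intervals wholly on both sides of 0, 2 below and 2 above. The region at chr15:110919739-110920250, at -0.26 (-0.51 to -0.01), lies in the neighboring gene FZD5, a Wnt receptor.

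**Figure D4:**
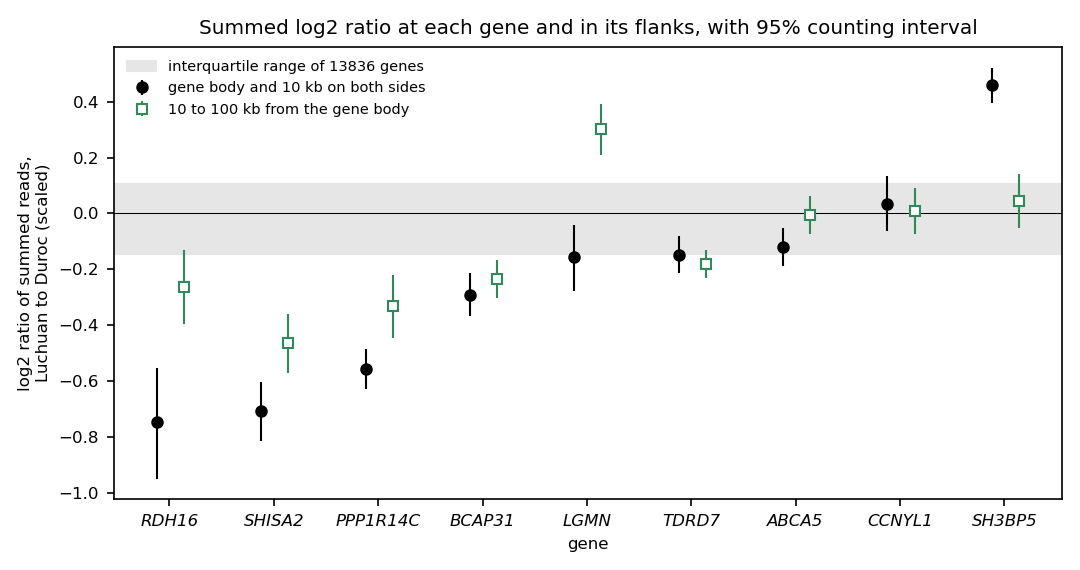
Log2 ratio of the summed reads of Luchuan to Duroc at each gene with 10 kb on both sides (black circles) and in the flanks from 10 to 100 kb (green squares), with 95% counting intervals and the interquartile range of 13836 genes in grey. The flanks of SHISA2, at -0.46, PPP1R14C, at -0.33, RDH16, at -0.26, BCAP31, at -0.23, and TDRD7, at -0.18, lie below the band as the genes do, that of SH3BP5 lies near 0 and that of LGMN lies above the band at 0.30.

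Relatives and partners of the 9 genes were examined by the same measure. Of 56 such genes 50 matched by symbol and 49 had regions. Apart from 3 regions shared with RDH16, their 376 regions had a median log2 ratio of 0.013, and 8 were at least 2-fold higher in Duroc and 17 in Luchuan, which is 2.13% and 4.52%. The median summed ratio of the 49 genes was 0.03. For legumain, the 9 cathepsin genes examined and the gene of the protease inhibitor cystatin C, CST3, had 46 regions with a median of -0.13 and 2 past 2-fold, both in Duroc, with summed ratios from -0.39 for CTSL, cathepsin L, to 0.58 for CTSS, cathepsin S, which had 1 region with 123 reads. For PPP1R14C, its paralogs and the subunits of myosin phosphatase had 106 regions, of which none was past 2-fold in Duroc and 2 were in Luchuan. PPP1R14A had 0.23, PPP1R14B -0.11 and PPP1R14D 0.14 as summed ratios, against -0.56 for PPP1R14C. For SHISA2, 6 paralogs with regions ranged from -0.53 for SHISA8 to 1.44 for SHISA6, which had 1 region with 15 reads.

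SH3BP5L, the paralog of SH3BP5, had -0.02, and the partners of SH3BP5, RAB11A and BTK, had 0.03 and 0.19. CCNY, a relative of CCNYL1, had -0.28 over 25 regions, 2 of them past 2-fold in Duroc, and the kinases CDK14 and CDK16 had 0.30 and -0.08. BCAP29, the paralog of BCAP31 on chromosome 9, had -0.04. ABCA6, a relative of ABCA5 on the same chromosome, had 0.77, from 6 regions and 293 reads, with 2 past 2-fold in Luchuan. The 10 retinoid enzyme genes with regions had 2 of 40 regions past 2-fold in each direction, and the 2 in Duroc were those of SDR9C7 that RDH16 shares. The Tudor domain genes and SND1 had 51 regions with a median of 0.04, with 1 past 2-fold in Duroc and 4 in Luchuan.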

How the data were processed

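ATAC-seq was measured in 6 libraries, 3 animals of each breed. Per the study's methods and the labels, Trimmomatic (version 0.36) served for read filtering, Bowtie2 for alignment to Sscrofa11.1, an assembly of a Duroc pig, and MACS2 for peak detection. Duplicate removal and pooling were not given in the sources used here. The authors deposited raw read counts, 1 column per breed with no replicate, read here as pooled over the animals. Their log2 fold change, mean signal and p-value columns were not used. Starts, counted from 0, are given from 1.

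Common intervals that overlapped or adjoined formed 1 region, represented by the longest. Ratios were scaled to a median of 0 over regions called in both breeds. Gene positions came from 19550 RefSeq protein-coding genes without strand, and all 9 genes matched. No sequences are shown, since none was given for the regions. The members, the gene lists and the named regions (regions at gene ends, those with the most reads and those past 2-fold) were chosen with earlier results of these data known. Scaling and calls were tested on simulated data that held counting error alone, without spread between animals or repeated reads. Only regions of 50 or more reads were changed there, by more than 2-fold. The simulation therefore does not bear on weaker regions or on changes near the limit. Alternatives covered scaling, pseudocount, merging, window, other genes, low counts and fold limit. Counts were analysed in Python 3.11.15 with pandas 2.3.3, NumPy 2.4.6 and SciPy 1.17.1, and plots were drawn in Matplotlib 3.10.9.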

Additional observations from a re-analysis of the deposited data

How the results depend on the processing

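With Luchuan counts scaled by the clean reads of the libraries, a factor of 1.29 in place of 1.48, ratios moved by -0.20 on the log2 scale. Summed ratios became -0.31 for ABCA5, -0.49 for BCAP31, -0.16 for CCNYL1, -0.35 for LGMN, -0.75 for PPP1R14C, 0.26 for SH3BP5, -0.90 for SHISA2 and -0.34 for TDRD7. The regions at gene ends became -0.031 for CCNYL1, -0.051 for LGMN, -0.43 for PPP1R14C, -0.014 for SH3BP5, -0.89 for SHISA2 and -0.28 for TDRD7, and 2 SH3BP5 regions were left past 2-fold in Luchuan. The signs of CCNYL1 and of the gene-end regions of CCNYL1, LGMN, SH3BP5 and ABCA5, at -0.0020, thus rest on the scaling. So do those of the regions with the most reads of ABCA5 and TDRD7, which became -0.19 and -0.18. With 5 reads added to each count, 13 regions were past 2-fold in Duroc. With every deposited interval, 11 were past it in Luchuan and PPP1R14C had -0.46. Limits of 1.5-fold gave 39 and 14 regions in Duroc and Luchuan, and 3-fold gave 4 and 1. Within 2 kb and 0 kb of the body, RDH16 had -1.14 and -1.06, and SHISA2 -0.60 and -0.48. Without regions in other genes TDRD7 had -0.22, and centred on X BCAP31 had -0.16. No paired analysis was possible because the columns carry no replicate, and replicates could not be left out for that reason. The search for promoter motifs was not run, since no sequence was given.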
